A study of Drosophila melanogaster with 46 samples.

Results

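Of 30774 regions of open chromatin counted in eye-antennal imaginal discs of Drosophila melanogaster, 500 (1.62%) were selected because their ATAC-seq signal varied together from library to library. The index region is a region of 721 bp on arm 2L centred at 17560575 (dm3). The members were chosen by the Pearson correlation of their log2 CPM with that of the index over 31 libraries, and are the 500 regions of highest correlation, the index included. CPM is the count of a region scaled to the total count of its library (counts per 1e6), here with a prior count of 2, and it is per region and not per length. The last member, 3R:3162986-3163460, had r = 0.944 and a span of 3.39 log2 units between its lowest and highest library. The first region left out, 3L:20434703-20435221, also had r = 0.944, with a span of 3.89, so the list has no natural edge. As r above 0.9 was found at 1704 regions, the members are the upper end of a larger group, and 312 of the 500 would also be taken with Spearman's rank correlation.

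ATAC-seq marks DNA that the Tn5 transposase can reach, mostly promoters and enhancers that are free of nucleosomes. In imaginal discs, the epithelial sacs from which adult appendages form, such sites are opened by transcription factors that differ between cell types and stages, and Grainyhead, the factor in the title of the series, is known to open many epithelial enhancers. Regions that gain and lose signal together across samples can lie next to each other at 1 locus or be scattered over the genome.

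ATAC-seq libraries had been made from hand-dissected discs of wandering larvae in the last larval stage, kept on normal food, from 23 inbred strains of the DGRP, a panel of Drosophila strains founded from wild flies. Lines DGRP_25208, DGRP_28123, DGRP_28260, DGRP_28262, DGRP_28265, DGRP_28275, DGRP_29652 and DGRP_55031 had 2 libraries each, 1 with the suffix IR in its title and 1 without. A single library with IR represented DGRP_25174, DGRP_25185, DGRP_25186, DGRP_25193, DGRP_25194, DGRP_28202 and DGRP_28222. A single library without IR represented DGRP_25187, DGRP_25199, DGRP_28153, DGRP_28206, DGRP_28224, DGRP_28243, DGRP_29651 and DGRP_55026. The labels do not say what IR stands for, and the other 15 samples of the series were not analysed here. Library totals ran from 1110755 to 12758783 counts with a median of 6283136. The regions carry no gene names, so they are described by position, and the tissue named in the labels was not checked against marker genes. In whole discs, a change in the number of cells of a type and a change in accessibility per cell cannot be told apart.

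The index region was among the regions of low signal in some libraries and of high signal in others. Over the 31 libraries its lowest level was 1.43 log2 CPM, its median 3.47 and its highest 7.66, a span of 6.23 log2 units. Both extremes came from line DGRP_25208, where it ranked at the 13.7 percentile of all regions with IR and at the 98.5 percentile without. Its library with IR had 8 counts at the index region in 3359736, and its library without IR had 224 counts in 1110755. In 3 other lines the index region was also far lower in the library with IR. It was 2.07 with IR against 6.73 without in line DGRP_28265, and 2.33 with IR against 7.10 without in line DGRP_29652. Line DGRP_55031 had 2.98 with IR and 7.52 without. Line DGRP_28260 ran the other way, with 6.61 log2 CPM at the index region in its library with IR and 2.03 in its library without. The other three lines had both libraries on the same side. In line DGRP_28275 both were high, at 6.71 with IR and 6.31 without. In lines DGRP_28123 and DGRP_28262 both were low, at 3.42 with IR and 1.78 without, and at 3.08 with IR and 3.31 without. The SD within lines was 2.82 log2 units, and the SD among the means of these 8 lines was 1.19. These are unlike measures, since a mean of 2 libraries varies less than 1 library. The SD within lines also holds any difference that goes with IR.

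**Figure D1:**
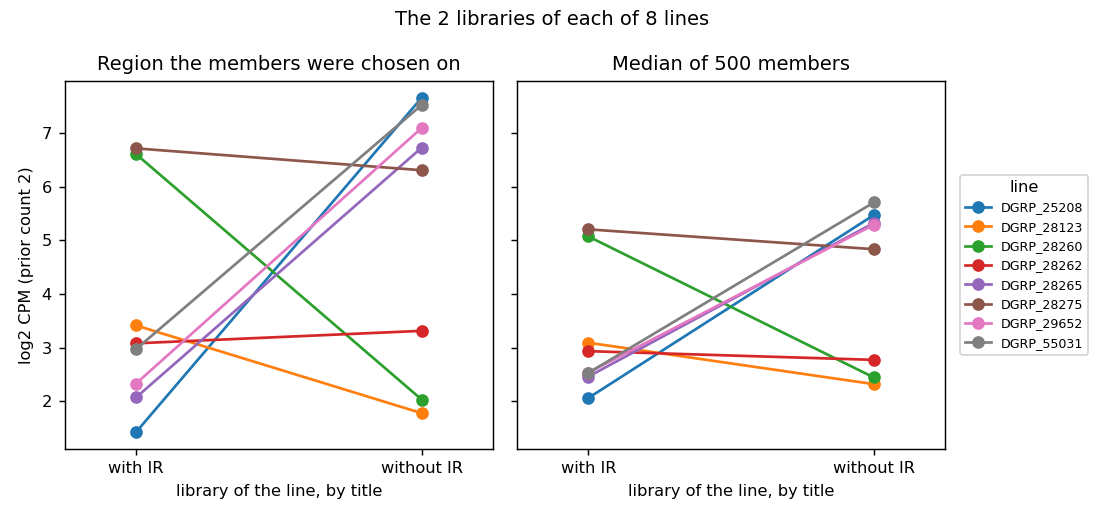
Log2 CPM (prior count 2) of the index region (left) and of the median of the 500 members (right) in the library with IR and the library without IR of each of 8 lines; each line of the plot joins the 2 libraries of 1 DGRP line. At the index region 3 lines were higher with IR and 5 were lower, and the span between libraries of 1 line reached 6.23 log2 units.

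The lines with 1 library lay within the range of the paired lines and did not reach its low end. The 7 of them with IR lay between 2.44 and 6.38 log2 CPM at the index region, with a median of 3.49, and the 8 without IR lay between 2.06 and 7.53, with a median of 3.61. The library of DGRP_25174 was the highest of the first set and that of DGRP_29651 the highest of the second. The ranges of the sets overlapped.

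The members opened as a body in some libraries. A member is called open here where it lay above the median log2 CPM of all regions in that library. More than 250 of the 500 members were open in 11 libraries. The library of DGRP_29651 had 490 members open, that of DGRP_55031 without IR had 482, and that of DGRP_25208 without IR had 476. The libraries of DGRP_29652 and DGRP_28265 without IR and both libraries of DGRP_28275 had 464, 452, 452 (with IR) and 407 (without IR). DGRP_28260 with IR had 439 members open, DGRP_25174 had 432, DGRP_25187 had 388 and DGRP_28153 had 337. These 11 libraries comprised 3 with IR and 8 without. The library of DGRP_25186 followed with 235, and the remaining 19 had 46 to 163. The fewest were open in DGRP_25208 with IR. DGRP_28153 and DGRP_25186 stood between the high and the low libraries, so the libraries do not fall into cleanly separate sets. With open defined as above the upper quartile of all regions, more than 250 members were open in 6 libraries.

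**Figure D2:**
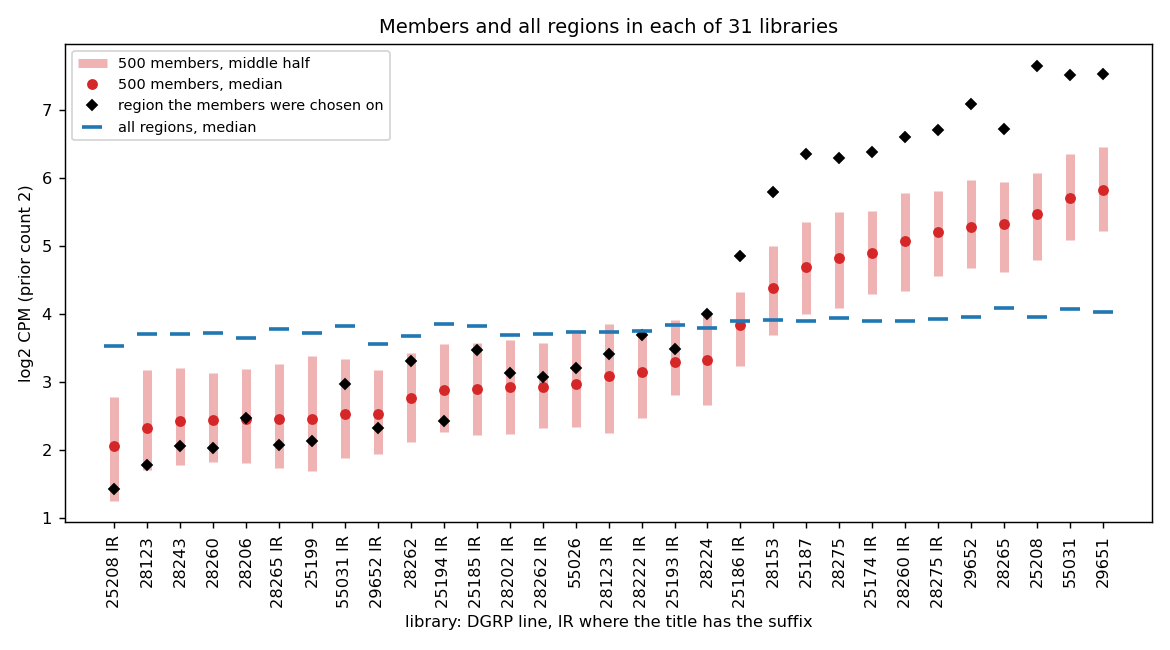
Log2 CPM (prior count 2) in each of 31 libraries, ordered by the median member: red points are the median and red bars the interquartile range of the 500 members, black diamonds the index region, and blue dashes the median of all 30774 regions. The median member ran from 2.06 in DGRP_25208 with IR to 5.83 in DGRP_29651, while the median of all regions stayed between 3.54 and 4.09.

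The level of the median member followed nearly the same order. It was 5.83 log2 CPM in DGRP_29651 and 5.71 in DGRP_55031 without IR, and 2.06 in DGRP_25208 with IR. Set against the median of all regions in the same library, it lay 1.80 log2 units above it in DGRP_29651 and 1.47 below it (a difference of -1.47) in DGRP_25208 with IR. The median of all regions itself stayed between 3.54 and 4.09. Among all regions, the median member ranked at the 84.1 percentile in DGRP_29651 and at the 22.2 percentile in DGRP_28123 without IR. The members were 1.62% of the regions. They held 3.52% of all counts in DGRP_29651 (exact Clopper-Pearson 95% interval 3.51% to 3.54%) and 0.267% in DGRP_25208 with IR (0.261% to 0.272%). These intervals cover counting error only.

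Libraries with many open members were found at both low and high depth and at both low and high X signal. The shallowest library, DGRP_25208 without IR with 1110755 counts, had 476 members open, while DGRP_28275 without IR, with 10279509, had 407. The deepest, DGRP_28206 with 12758783, had 70. Mean counts per region on X relative to the large autosomal arms gave a ratio of 1.08 both in DGRP_29652 without IR, where 464 members were open, and in DGRP_28123 without IR, where 68 were. The ratio was 0.786 in DGRP_55031 without IR, with 482 members open, and 0.806 in DGRP_28265 with IR, with 61. The part of either measure in the pattern was not tested.

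The size of the change differed between members. The span, the highest minus the lowest log2 CPM over the 31 libraries, had a median of 4.06 log2 units or 16.7-fold among members, against 1.88 or 3.69-fold over all regions. A span of at least 16-fold was reached by 265 members, or 53%, where 7.15% of all regions reached it, and a span of at least 4-fold by all 500, where 45.6% of all regions did. At least 8-fold was reached by 481 members (96.2%, against 21.2% of all regions) and at least 32-fold by 44 (8.8%, against 2.05%). The rule favours regions that vary well beyond counting noise, so these shares are a description of the choice. The members were not the widest of all: 29 of the members were among the 500 regions of widest span.

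After the index region, the widest span was that of 2L:19836424-19837323, which lay between 0.27 and 6.22 log2 CPM with a median of 2.98. Its lowest value rests on 3 counts in DGRP_25208 with IR and its highest on 566 in DGRP_29651. Next came 2R:16820934-16821593 with a span of 5.77, 2L:16071437-16072153 with 5.71 and 3L:10818126-10818693 with 5.66. The region 2L:2394505-2394951 spanned 5.64, X:10507392-10508401 spanned 5.60 and 2R:16843579-16844037 spanned 5.57. All of these were highest in DGRP_29651, and all but 2R:16820934-16821593, lowest in DGRP_28123 without IR, were lowest in DGRP_25208 with IR. Low ends of this kind rest on few reads: 41 members had 3 or fewer counts in some library, and 1 member had 0.

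The narrowest span belonged to the most accessible member, 2L:18782501-18784068. It lay between 5.89 and 8.04 log2 CPM with a median of 6.34, so it was open in every library and gained 2.15 log2 units from the lowest to the highest. The regions 3R:11075444-11077066, 2L:8425748-8426419 and 4:523088-523618 spanned 2.24, 2.37 and 2.54 log2 units. Their lowest levels were 3.98, 3.92 and 3.78 log2 CPM, and all 3 were highest in DGRP_55031 without IR. At the other end, the least accessible member, 2L:19836018-19836315, had a mean of 1.20 log2 CPM and at most 92 counts in any library. It ends just before the start of 2L:19836424-19837323, the member of second widest span, and had 0 counts in DGRP_25208 with IR.

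**Figure D3:**
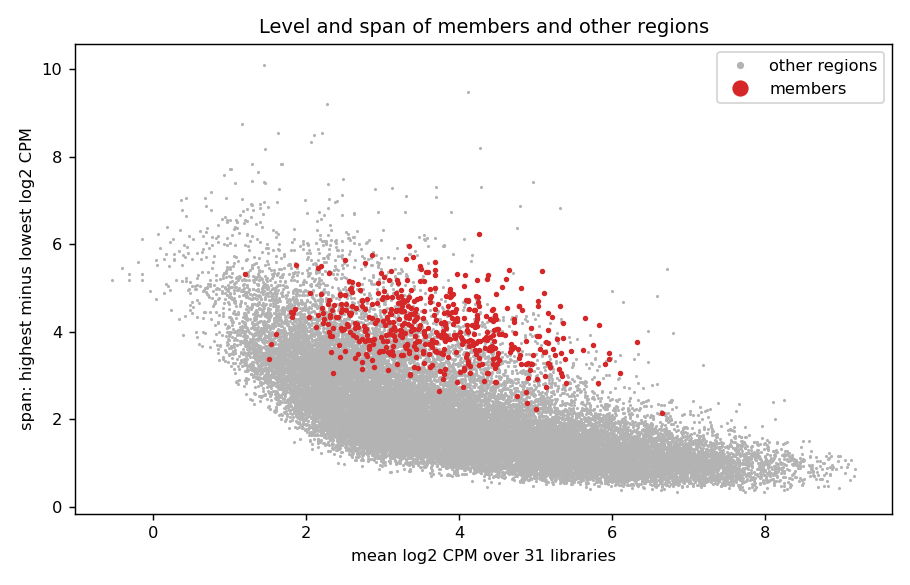
Span (highest minus lowest log2 CPM over 31 libraries) against mean log2 CPM, with 500 members in red and the other 30274 regions in grey. Members lie at middle levels with a median span of 4.06 log2 units, against 1.86 for the other regions, and the member of highest mean level has the narrowest span, 2.15.

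Few members were always open or never open. A member was open in a median of 11 of the 31 libraries. Of the members, 31 (6.2%) were open in every library and 6 (1.2%) in none, whereas 31.2% of all regions were open in every library and 21.4% in none. The rule took regions that follow an index of low signal in some libraries and high signal in others. These shares are therefore a description of the choice. The mean level of the members was ordinary, with a median of 3.62 log2 CPM against 3.75 in the other regions, and 274 of the 500 lay below the median of all regions. No member was among the 500 regions of highest mean level. The members were longer than the other regions, with a median of 613.5 bp against 453 bp, and 80.8% of them were longer than the median of all regions. Longer regions collect more counts at the same accessibility per base. Whether the rule, which uses counts, plays a part in the difference in length was not tested.

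The members resembled each other nearly as closely as they resembled the index region. Pairs of members had a median correlation of 0.937 over the 31 libraries and none was below 0.834. Among the closest to the index were 2L:17513710-17514923 with r = 0.986 and 2L:17588220-17588690 with r = 0.984, both within 50 kb of it. The others of the 10 highest lay on other arms: 3R:14843057-14843974 and 3R:6193760-6194504 with r = 0.983, 3L:1648585-1649205 and 2R:15682016-15682972 with r = 0.982, 2R:10322968-10323436 with r = 0.981, and 2R:18403060-18404182 and 2R:6570162-6571160 with r = 0.980. The rule took the regions by their r with the index over the same 31 libraries. High correlations between members therefore follow largely from the choice.

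Members followed the index region with a smaller amplitude. For each log2 unit at the index, a member changed by a median of 0.58 log2 units, and by 0.31 at 2L:18782501-18784068 to 0.87 at 2L:17588220-17588690. No other member changed by more than the index. What the index did not account for had a median SD of 0.36 log2 units per member. These remainders were weakly shared between neighbours: their median correlation was 0.39 over 169 pairs of members up to 10 kb apart, 0.26 over 397 pairs 10 to 100 kb apart and 0.23 over 95455 pairs on different arms. The pairs share libraries and depth.

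The members were spread over all arms but sparse on X. Arm 3R held 135, 3L held 134, 2L held 117, 2R held 89, X held 23 and chromosome 4 held 2. This was 4.6% of the members on X, which has 17.7% of all regions. Members were 2.10% of the regions on 3L, 1.96% on 2L, 1.88% on 3R, 1.60% on 2R and 0.423% on X. On chromosome 4 the share was also low, at 0.81%, but it rests on 2 members of 247 regions. Relative to autosomal regions, the mean count of X regions ran from 0.708 to 1.08 over the libraries. With X counts scaled to the total of X regions, a setting chosen after seeing the data, X held 47 of the 500. At r above 0.9 the counts of X regions were 139 with the main scaling and 224 with the X scaling. The 47 are also fewer than X's share of all regions would give. In the members on X the span was not smaller, with a median of 4.43 log2 units against 4.06 over all members.

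Along the arms the members lay in small groups among many that stood alone. With members joined where the gap was at most 10 kb, 195 (39%) fell into 77 groups of 2 or more and 305 were alone. There were 54 groups of 2, 15 of 3, 4 of 4, 1 of 5 and 3 of 7. The nearest region of a member was itself a member in 92 cases (18.4%), while 1.42% of the other regions had a member as their nearest region. Members lay closer to their nearest region than the others did, with a median gap of 584 bp against 755.5 bp. In 1 Mb windows, 109 of 123 held a member and 7 held 10 or more. The richest were the windows from 19 to 20 Mb on 2L, with 19 members of 299 regions, and from 17 to 18 Mb on 2L, with 17 of 192.

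The index region sits in the group with the most members when members up to 50 kb apart are joined. Within 100 kb of it lie 47 regions, of which 15 were members, and the other regions included 3 with r above 0.9. The 15 members form 1 group on 2L from 17513710 to 17615632. At its centre are 4 members of 4 regions from 17558343 to 17562362, which spanned 4.35 to 6.23 log2 units. A second block, from 17575343 to 17589532, holds 7 members of 8 regions, with spans of 4.07 to 5.40. Its leading member, 2L:17588220-17588690, lay between 1.13 and 6.51 log2 CPM with a median of 2.63, on 12 counts at the lowest and 690 at the highest. The 1 region of that block outside the list, 2L:17587123-17587574, missed narrowly, with r = 0.943. Regions of another behaviour lie directly beside members. The region 2L:17517119-17517507, the next after the member 2L:17513710-17514923, had r = -0.47, and 2L:17592099-17592386, the next after the second block, had r = -0.39. In all, 17 regions within 100 kb had r below 0.5.

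**Figure D4:**
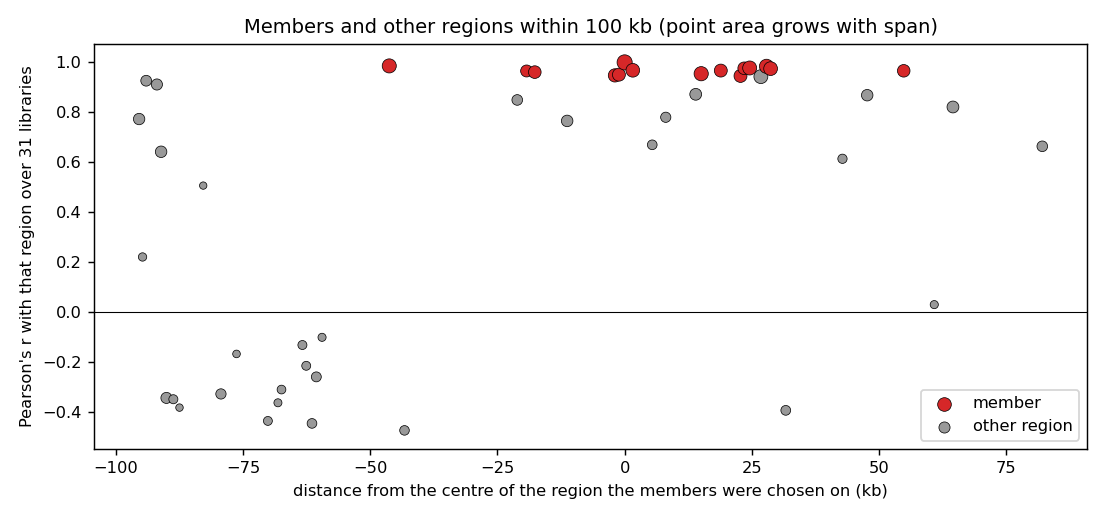
Pearson's r with the index region over 31 libraries against distance in kb from its centre, for the 47 regions within 100 kb; red points are the 15 members, grey points the other regions, and point area grows with the span. Members lie on both sides of the index and regions of r below 0, such as the one at r = -0.47, lie between or beside them.

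Other blocks were as compact. On 3L from 901582 to 909308, all 7 regions were members, with spans of 4.29 to 4.91 log2 units. Its leading member, 3L:904660-905059, lay between 1.65 and 6.41 log2 CPM with a median of 2.97, lowest in DGRP_28265 with IR and highest in DGRP_29651. All 4 regions were members on 3L from 6874179 to 6879438, with spans of 3.45 to 4.38, and on 3L from 10835772 to 10838906, with spans of 3.47 to 4.43. In those blocks the leading members, 3L:6878149-6878760 and 3L:10837810-10838360, reached 5.65 and 6.79 log2 CPM in DGRP_55031 without IR and were lowest in DGRP_25208 with IR, at 2.16 and 3.16.

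Other groups had regions of a different behaviour between the members. On 2L from 19011838 to 19027865, 7 of 10 regions were members. The leading one, 2L:19011838-19013313, was accessible throughout, from 4.23 to 8.40 log2 CPM, and the least like them, 19021321 to 19022378, had r = 0.71. On 2R from 18394454 to 18411484, 5 of 10 were members. The leading member there, 2R:18403060-18404182, lay between 3.44 and 7.78 log2 CPM, while 18397480 to 18398159 had r = 0.22. On 2L from 15426735 to 15442838, 4 of 8 were members, and the region from 15439852 to 15440052 had r = -0.25. The leading member, 2L:15426735-15427117, had levels of 1.07 to 4.91 log2 CPM. Over all groups of 2 or more, 92 regions lay between members without being members. Their median r was 0.76, with 22 above 0.9 and 36 below 0.5, among them 25 below 0.

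The likeness to the index fell off within a few kb of a member. Regions outside the list had a median r of 0.88 when their centre lay up to 1000 bp from that of the nearest member, 0.45 at 1000 to 5000 bp and 0.08 at 5000 to 10000 bp. At 10000 to 50000 bp the median was -0.03 and beyond 100000 bp it was -0.08, close to the -0.05 of all regions. Near members the values were spread widely, with quartiles of -0.14 and 0.86 at 1000 to 5000 bp, so neighbours up to 5000 bp away ranged from close followers to regions of no relation. The regions share the same 31 libraries. The closest followers of the index are members and are left out here, so the rule shapes these values.

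**Figure D5:**
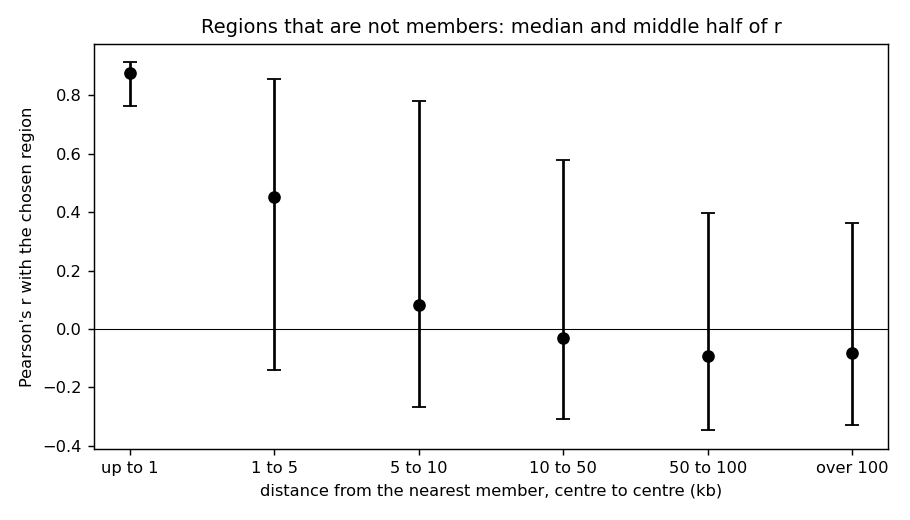
Pearson's r with the index region for regions outside the list, by distance in kb to the nearest member, centre to centre; points are medians and bars run from the lower to the upper quartile. The median is 0.88 up to 1 kb, 0.45 at 1 to 5 kb and 0.08 at 5 to 10 kb.

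Strong correlation with the index ran mostly one way. Over all regions, 7966 had r above 0.5 and 3146 had r below -0.5, but 1704 had r above 0.9 and 1 had r below -0.9. The lowest r was -0.90. The median r of all regions was -0.05, so the weak correlations did not share this direction.

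The study compared accessibility between lines. In edgeR's quasi-likelihood test over all 23 lines, 0 of 500 members passed, where 29 of 30773 tested regions (0.0942%) did. At so low a share, a count of 0 among 500 says nothing about the members. No member had an unadjusted p under 0.05, where 7.68% of all regions had one, and the smallest edgeR adjusted p of a member was 0.979. With DESeq2 0 members passed, where 5.51% of all regions did, and 19 had an unadjusted p under 0.05, where 11.1% of all regions had one. In edgeR, 0 members passed with total counts only, no filter, a mean count of at least 50 (450 members tested) or no term for IR, where 0.162%, 0.0942%, 0.28% and 0.224% of all regions did. The members share 1 pattern over these libraries, so these counts come close to a single outcome and not 500. The members were chosen for following the index over the same libraries, and the index had an unadjusted edgeR p of 0.614 between lines. The outcome was thus largely set by the choice, and nothing is read from it. Among members, the SD between the 2 libraries of a line had a median of 1.66 log2 units, and the SD of line means a median of 0.74. These are unlike measures, since a mean of 2 libraries varies less than 1 library. Each pair of libraries also differs in IR. The part of these spreads in the test outcome was not tested. The SD within lines was the larger in all 500 members, which again comes close to a single outcome. In the other regions the medians were 0.41 and 0.33, and the SD within lines was the larger in 76.0%.

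The comparison of libraries with and without IR used the 8 lines that hold both kinds, with the line as a block in edgeR's quasi-likelihood test. Of the members, 0 of 500 passed, where 9 of 30710 regions (0.0293%) did, all of them higher with IR. At this share too, a count of 0 among 500 says nothing about the members. The median log2 fold change of the members, with over without IR, was -1.08, against -0.05 over all regions, and it was below 0 in every member. The lines did not share this direction. All 500 members were at least 2-fold lower with IR in DGRP_25208, DGRP_28265, DGRP_29652 and DGRP_55031, with median differences of -3.38, -2.73, -2.71 and -3.04 log2 units, where 24.6%, 22.8%, 21.1% and 22.2% of all regions were. All 500 were at least 2-fold higher with IR in DGRP_28260, with a median difference of 2.58, where 16.4% of all regions were. Smaller differences were seen in DGRP_28123, with a median of 0.67 and 451 members higher, in DGRP_28275, with 0.34 and 405 higher, and in DGRP_28262, with 0.16 and 330 higher. In the other regions 53.6%, 51.1% and 56.5% were higher in these 3 lines. The rule chose regions that move together over these libraries, so the unanimity within a line is part of the choice.

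The smallest edgeR adjusted p of a member for IR was 0.291, and 1 member had an unadjusted p under 0.05, where 17% of all regions had one. It was 3L:5147902-5148864, named after its values were seen. With DESeq2 0 members passed, where 3.55% of all regions did, and 180 had an unadjusted p under 0.05, where 20.3% had one. In edgeR with no block for the line, 0 members passed, where 0.462% of all regions did, and 97 had an unadjusted p under 0.05, where 21% had one. In edgeR, 0 also passed with total counts only, no filter or a mean count of at least 50 (444 members tested), where 0.0521%, 0.0292% and 0.0936% of all regions did. The size of the median change depended on single lines, in both directions. It was -0.74 without DGRP_25208, -0.74 without DGRP_28265, -0.76 without DGRP_29652 and -0.72 without DGRP_55031, and in each of these 4 edgeR fits 0 members passed and 0 had an unadjusted p under 0.05. The median was -1.37 without DGRP_28123, -1.37 without DGRP_28275 and -1.31 without DGRP_28262. Without DGRP_28260, the line whose members ran most strongly the other way, the median log2 fold change was -1.49. In that edgeR fit 383 members had an unadjusted p under 0.05, where 26.2% of all regions had one. The smallest edgeR adjusted p of a member was 0.113 and 0 members passed, where 0.00978% of all regions did. The members share 1 pattern, so each of these counts of members comes close to a single outcome. The index itself had an unadjusted edgeR p of 0.185 for IR in the main fit. The members were chosen for following it, so nothing is read from these counts.

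A fit with the level of the index region as a covariate asks what is left once that level is allowed for. It was chosen after seeing the data. What is left can still be shared, since the remainders of members on different arms had a median correlation of 0.23. Between lines, 4 of 500 members passed, or 0.8%, where 9.7% of all regions did. The members were picked for following the covariate, so nothing is read from the lower share. The smallest edgeR adjusted p, 0.0245, was that of 3R:26584352-26585076, which lay between 2.90 and 7.33 log2 CPM with a median of 4.83. Set against the level predicted from the index, DGRP_28123, with 2 libraries, was 0.99 log2 units above and DGRP_28153 was 0.58 below (a difference of -0.58), with an SD within lines of 0.30. At 3R:25090346-25091589 (edgeR adjusted p = 0.0279), DGRP_28123 at 0.61 and DGRP_28243 at 0.60 were nearly level as the highest, with an SD within lines of 0.37. At 3R:21414720-21415419 (edgeR adjusted p = 0.0422), DGRP_28123 was highest at 0.69. There DGRP_25199 followed at 0.46, with an SD within lines of 0.27. At 2L:17558343-17558987, a close neighbour of the index, DGRP_55031 was highest with 1.11 log2 units above the predicted level and an SD within lines of 0.32 (edgeR adjusted p = 0.0362). For IR, 1 member passed in this fit, where 3.14% of all regions did and 1.79% were called lower with IR. It was 2L:1437217-1438263, lower with IR by a log2 fold change of -0.51 and lower in 7 of 8 lines relative to the level predicted from the index (edgeR adjusted p = 0.0337).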

How the data were processed

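The authors deposited counts of sequencing reads, not normalized, for 1 common set of regions in 31 libraries. They used Bowtie2, MACS2, featureCounts and DESeq2 and build dm3, per the submitters' processing notes. How duplicates, reads with several matches and the transposase offset were handled can move counts at region edges or in repeats. Their settings are not stated in the labels. Coordinates are as deposited. No dm3 genome or annotation was used, so no sequence is shown and no marker list was run.

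Samples were grouped by line. The shared line pairs the libraries with and without IR. Nothing in the labels tells whether libraries of a line were dissected separately. The p-values therefore measure only the spread between libraries, which may be technical.

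Log2 CPM used column totals and a prior count of 2. edgeR 4.0.16 in R 4.3.3 (TMM, robust quasi-likelihood F-test, Benjamini-Hochberg at 0.05) was fitted to all regions whose CPM in 2 or more libraries reached that of 10 counts in a library of median size. Lines were tested in 31 libraries with a term for IR, and IR in 16 libraries with the line as a block, with 7 residual degrees of freedom each. Lines with 1 library are assumed to vary like those with 2. All 500 members passed the filter. DESeq2 1.42.0 was the other test. Other alternatives were the scaling, filter, prior count, rank correlation, joining distance, open threshold and left-out libraries.

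Named regions are the index, the 9 others of highest r, the 8 of widest and 4 of narrowest span, those of highest and lowest mean level, those at the edge of the list, the leading members of the 8 largest groups and called members. The members, lists and tests were chosen with earlier results of these data known.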

Additional observations from a re-analysis of the deposited data

Results flagged for a closer look

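Values of the members were checked for single libraries far from the rest of their set in 16 sets of 7 or 8 values (4 measures in 4 sets by IR and by number of libraries per line), where chance sets apart about 1 in 20, and 3 stood apart. The 4 measures restate 1 pattern over the libraries that chose the members, so the sets are not independent and this number supports nothing. Among the 7 libraries with IR of lines with 1 library, that of DGRP_25174 held 1.83% of its counts in the members, while the second highest held 0.815% and the median library 0.541%. In the same set it had 432 members open, while the second highest had 235 and the median library 128. Among the 8 libraries without IR of lines with 1 library, that of DGRP_29651 held 3.52% of its counts in the members, the second highest 1.59% and the median 0.583%. The index region moved in opposite directions with IR in different lines, by 4.57 log2 units in DGRP_28260 and by -6.23 in DGRP_25208. Each line has 1 pair of libraries, and the difference between lines was not tested.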

How the results depend on the processing

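The list of members depended most on the kind of correlation: 312 of the 500 were kept with Spearman's rank correlation, 485 with TMM scaling, 489 with a prior count of 0.5, 476 with X counts scaled to the X total (chosen after seeing the data), and 453 to 494 when each of the 31 libraries was left out. The median span of the members was 4.06 log2 units, 4.19 with a prior count of 0.5, 3.93 with TMM scaling, and 3.91 to 4.06 with single libraries left out. Members joined to another numbered 195 at 10 kb, 162 at 5 kb and 305 at 50 kb. Libraries with more than 250 members open numbered 11, and 6 when open meant above the upper quartile of all regions. The count of members that differed between lines was 0 in edgeR with total counts, no filter, a mean count of 50 or more or no term for IR, in DESeq2, and in edgeR without any single library of the 8 lines (0 to 0). Those fits without a library called between 0 and 41 of all 30773 regions, so their counts of 0 members say nothing about the members. The count was 4 with the index level as a covariate. The count for IR was 0 under the same settings except the term for IR, and 0 to 0 with each line left out, since a left-out library takes its line out of the paired comparison. The fits without a line called 1 to 3 regions in all, so these counts say nothing about the members either. It was also 0 with no replicate block, where 97 members had an unadjusted p under 0.05 in edgeR, and it was 1 with the index level as a covariate. The causes of these changes were not tested. The lowest values behind the widest spans rest on few counts, and the effect of depth on these spans was not tested.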
